A study of Rattus norvegicus with 10 samples.

Results

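The 10 genes in question mark microglia or their activation (Aif1, Cx3cr1, P2ry12, Csf1r, Trem2, Tyrobp, Cd68, Itgam, Spi1 and Tmem119), and their mRNA was followed rat by rat in the hippocampus. They were chosen by name, as the rows of the count matrix whose RefSeq identifier maps to the rat symbol, with the row of highest mean count kept for each symbol. All 10 symbols were matched, each by 1 row, among 16610 symbols in the matrix, and all 10 passed the filter on low counts. The tissue, labelled dorsal hippocampus, was the part of the left hippocampus that holds CA3 and the dentate gyrus, from 10 adult male Sprague-Dawley rats of an outbred strain. The 5 sham rats (rats 1 to 5) had surgery under isoflurane and butorphanol, carried an electrode in the left lateral amygdala and received no current. The 5 stimulated rats (rats 6 to 10) had the same surgery and implants and, after 2 weeks of recovery, were stimulated at 400 µA and 60 Hz for 30 min, or 10 min longer where needed, to evoke status epilepticus, a prolonged seizure that was stopped with diazepam. Tissue was collected 3 months after status epilepticus, and from sham rats matched in time. The stimulated rats were monitored by video-EEG for 2 weeks before the end of the experiment. The body weight of 290 to 320 g describes the rats as they were housed for the study. No weight at collection is given, and the labels give no age. Both groups thus carried an electrode in the same hemisphere, and effects of the stimulation, the diazepam and the seizures that followed cannot be told apart.

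Microglia are the resident phagocytes of the brain. In healthy tissue they survey their surroundings with fine processes and depend on signals through CSF1R to survive, while the factor PU.1, the product of Spi1, keeps their gene program running. After injury or seizures they can turn to a phagocytic state, which is described by a loss of surveillance receptors such as P2RY12 and a gain of the TREM2 and TYROBP pathway and of lysosomal proteins such as CD68. In a piece of whole tissue, a change in the number of microglia and a change in RNA per cell cannot be told apart.

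Aligned counts per rat lay between 13552309 and 24086059. The share of reads that the authors could not align was 32.8 to 37.1% in sham and 32.01 to 45.1% in stimulated rats. It was 35.6 and 32.01% in rats 6 and 7, and 41.4, 42.9 and 45.1% in rats 8, 9 and 10. Ribosomal RNA records held 1.82 to 12.2% of aligned counts in sham and 3.03 to 5.64% in stimulated rats. The part of these differences in the levels below was not tested. Sham rat 2 had the fewest counts, and its mean correlation of log2 levels with its own group was 0.972, beside 0.981 to 0.983 for the other sham rats and 0.961 to 0.968 for the stimulated rats. Summed neuronal markers were 4093 to 4847 CPM across sham and 4360 to 4660 CPM across stimulated rats, as in tissue that holds neurons. Levels below are CPM, the counts of a row relative to the size of its library after scaling with trimmed mean factors. CPM values were not compared between genes, because no transcript lengths were used. Fold changes are stimulated over sham, on the log2 scale, from the quasi-likelihood test of edgeR with Benjamini-Hochberg adjustment over all 22447 tested features. Nothing in the labels states that rats were handled in batches.

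No member passed that test. Adjusted p-values under 0.05 were found in 0 of 10 members and in 0% of all tested features. Unadjusted p-values under 0.05 were found in 0 of 10 members and in 9.86% of all features. Other fits also gave 0 of 10 at either threshold, beside 0.53% of all features adjusted and 9.98% unadjusted in the likelihood ratio test of edgeR, 0.143% and 10.4% in DESeq2, and 0% and 9.06% in limma-voom. The paper's own edgeR analysis, with 4 stimulated rats by its methods, listed altered genes for this model with adjusted p-values under 0.05. No member is in that list, but Gpnmb, Lyz2, Runx1, Pecam1 and Aqp4, described below, are there as upregulated. The reason for this difference from the fit used here was not tested. The log2 fold change was above 0 for 9 of 10 members, beside 52.2% of all features, and its median was 0.17 beside 0.01 over all features. Both depended on single rats: 6 of 10 were above 0 without rat 7 (49.3% of all features) and 7 of 10 without rat 9 (52.3%), and the median was 0.099 without either of them. The groups overlapped for all 10 members, where 1.29% of all features did not overlap. The 95% interval of the log2 fold change included 0 for all 10 members. It reached past a 1.5-fold change for 4 of them (P2ry12, Tyrobp, Cd68 and Itgam), so that changes of that size could not be told from no change for these genes.

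**Figure D1:**
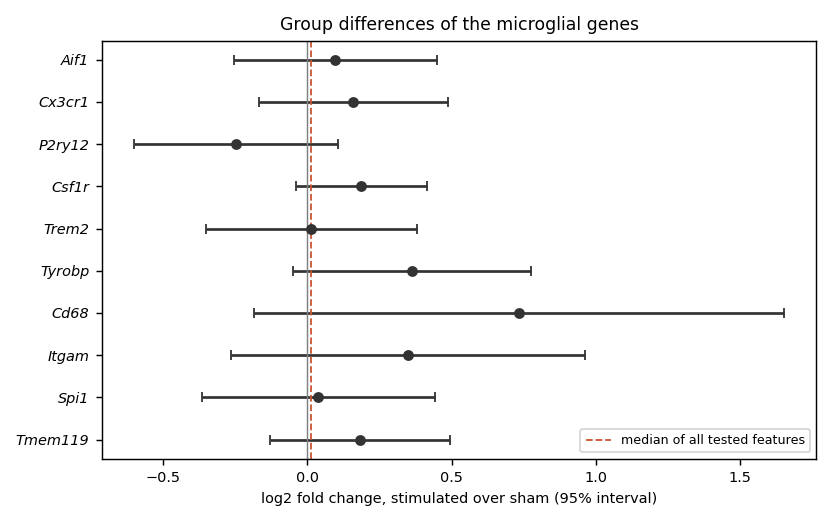
Log2 fold change of each microglial gene, stimulated over sham, with its 95% interval from the quasi-likelihood fit (5 rats per group). The dashed line is the median of all tested features, at 0.01. The points run from -0.25 for P2ry12 to 0.73 for Cd68, and all 10 intervals include 0.

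Values were more widely spread among stimulated rats for most members. The coefficient of variation (SD over mean) was larger in stimulated than in sham rats for 9 of 10 members, the exception being P2ry12, and for 69.2% of all features. Its median over the members was 11.1% in sham and 25.8% in stimulated rats, beside 14.4% and 20.3% over all features. The high values were not shared evenly among the rats. Stimulated rat 7 held the highest value of 4 members (Aif1, Tyrobp, Itgam and Spi1) and stimulated rat 9 that of another 4 (Cx3cr1, Csf1r, Trem2 and Cd68). Stimulated rat 10 held the highest Tmem119 and sham rat 2 the highest P2ry12. Stimulated rat 6 held the lowest value of 4 members, and rat 8 held no extreme value.

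**Figure D2:**
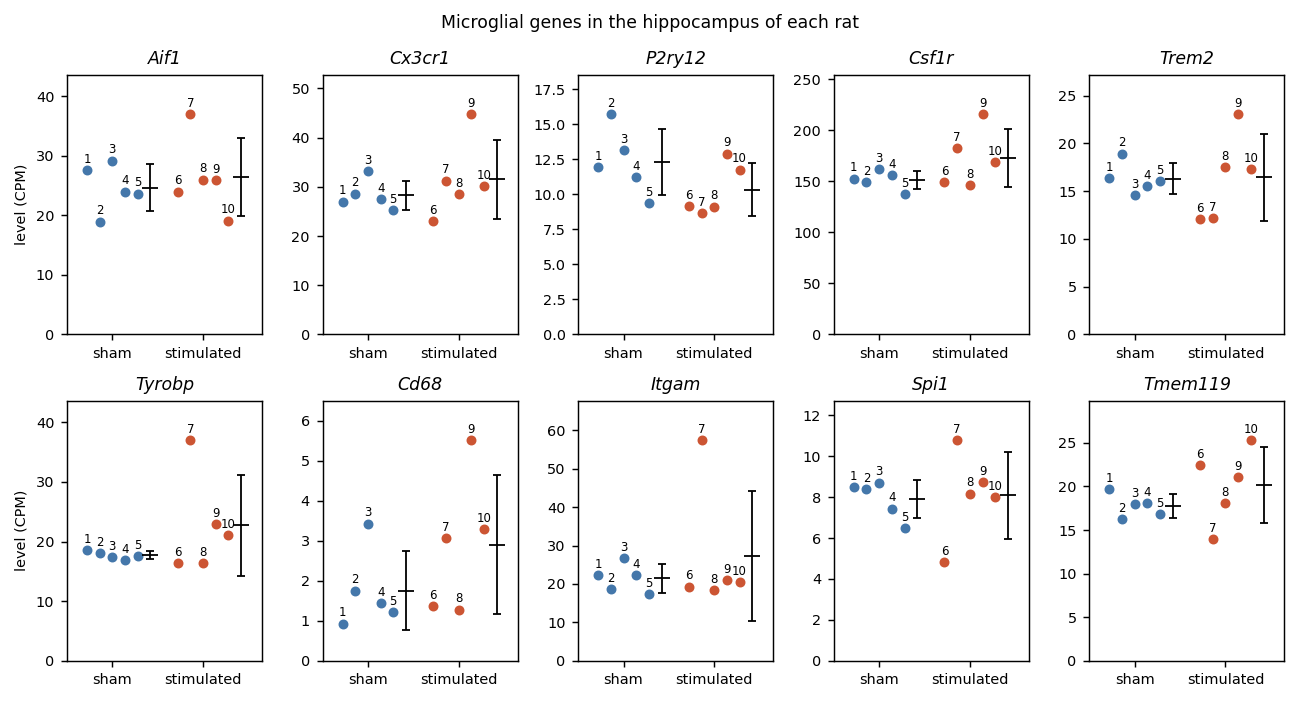
CPM of each microglial gene in each rat, with rat numbers beside the points and the mean and SD of each group (n = 5) in black. Sham rats cluster closely for Tyrobp, between 16.9 and 18.6 CPM, whereas stimulated rats spread from 16.3 to 36.95 CPM. Single rats carry the highest values of Itgam (rat 7) and Cd68 (rat 9).

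Surveillance and identity genes came first. Aif1 (NM_017196) encodes IBA1, a calcium-binding protein that bundles actin and is the usual stain for microglia. Its levels in sham rats 1 to 5 were 27.5, 18.9, 29.2, 23.97 and 23.6 CPM. In stimulated rats 6 to 10 they were 23.97, 36.95, 25.98, 25.9 and 19.1 CPM. Only rat 7 lay above all sham rats, and rat 10 lay near the lowest sham rat. The log2 fold change was 0.10 (adjusted p = 0.883, SE 0.164), and without rat 7 it was -0.07.

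Cx3cr1 (NM_133534) encodes the receptor through which microglia read the neuronal ligand fractalkine. Sham rats 1 to 5 had 26.98, 28.6, 33.1, 27.5 and 25.2 CPM. Stimulated rats 6 to 10 had 23.1, 31.3, 28.5, 44.8 and 30.2 CPM. Rat 9 alone was above the sham range and rat 6 alone was below it. The fold change was 0.16 on the log2 scale (adjusted p = 0.759, SE 0.152), and the omission of rat 9 brought it to -0.00017.

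P2ry12 (NM_022800), the receptor for ADP that steers microglial processes toward injured cells, was the only member with a lower mean in stimulated rats. Its levels were 11.9, 15.7, 13.2, 11.2 and 9.38 CPM in sham rats 1 to 5. Those of stimulated rats 6 to 10 were 9.18, 8.63, 9.13, 12.9 and 11.8 CPM. Rats 6, 7 and 8 lay below every sham rat, by a small margin, and rats 9 and 10 lay within the sham range. The sham mean was 12.3 ± 2.36 CPM and the stimulated mean 10.3 ± 1.89 CPM (SD, n = 5 each), which gave a log2 fold change of -0.25 (adjusted p = 0.636, SE 0.164, 95% interval -0.60 to 0.11). Without sham rat 2, whose value was the highest, the log2 fold change was -0.15. It was -0.34 without sham rat 5 and also without rat 9.

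Tmem119 (NM_001107155) encodes a membrane protein that is widely used to tell microglia from macrophages that enter from the blood. Sham rats 1 to 5 had 19.7, 16.3, 17.95, 18.1 and 16.8 CPM. Values in stimulated rats 6 to 10 were 22.4, 13.97, 18.1, 21.1 and 25.3 CPM. Rats 6, 9 and 10 were above all sham rats and rat 7 was below all of them, an order unlike that of Aif1. The log2 fold change was 0.18 (adjusted p = 0.699, SE 0.145), and 0.28 without rat 7, with an unadjusted p of 0.0338 in that edgeR fit, in which 7.37% of all features had one under 0.05. Without rat 10 it was 0.09.

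Next came the growth factor receptor and the lineage factor. Csf1r (NM_001029901), the receptor for the survival factors CSF1 and IL-34, was the most deeply counted member, with 1956 to 4230 reads per rat. Its levels in sham rats 1 to 5 were 153, 149, 162, 156 and 138 CPM. In stimulated rats 6 to 10 they were 149, 183, 146, 216 and 169 CPM. Rats 7, 9 and 10 were above all sham rats, and rats 6 and 8 lay among them. The means were 152 ± 8.98 and 173 ± 28.4 CPM (SD, n = 5 each), for a log2 fold change of 0.19 (adjusted p = 0.569, SE 0.106, 95% interval -0.04 to 0.41). This fold change was 0.09 without rat 9 and 0.23 without rat 8.

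Spi1 (NM_001005892) encodes PU.1, a factor that binds DNA at a GAGGAA core and is needed for the myeloid lineage. Sham rats 1 to 5 had 8.49, 8.39, 8.71, 7.44 and 6.49 CPM. In stimulated rats 6 to 10 it was at 4.84, 10.8, 8.17, 8.72 and 7.995 CPM. The lowest and the highest of all 10 rats were both stimulated, rats 6 and 7. Its log2 fold change was 0.04 (adjusted p = 0.964, SE 0.188, 95% interval -0.37 to 0.44).

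Because PU.1 is itself a member, the promoters of the members were searched for its core. The RefSeq promoter table of the GRCr8 assembly, which spans 250 bases before to 50 bases after each start, held 5 of the 10 members (Itgam, Cx3cr1, Trem2, Cd68 and Csf1r). The letters GAGGAA on either strand (TTCCTC on the opposite one) were found in 4 of these 5, all but Cx3cr1, and in 27.6% of all 33469 promoters. The longer form GAGGAAGT, which contains the shorter one, was found in 0 of 5 and in 2.42% of all promoters. The stretches before the start of Itgam, Trem2 and Cd68 are shown because the products of these members act in phagocytosis, with the matched letters in capitals, 5′ to 3′ on the strand of the gene, from RefSeq (GRCr8).
Itgam, chr1:192089432-192089455, plus strand, match on the strand of the gene: gatgtcccaGAGGAAggctacaca
Itgam, chr1:192089544-192089567, plus strand, match on the opposite strand: tttagtggcTTCCTCaaagtgttt
Trem2, chr9:20151794-20151817, minus strand, match on the opposite strand: ctcctttccTTCCTCcctcgtgcc
Cd68, chr10:54882454-54882477, minus strand, match on the opposite strand: agttttcatTTCCTCttccaagag
The matches begin 151, 39, 29 and 27 bases before the start, in that order. They describe letters in these windows and were not tested as binding sites. Spi1 and Itgam were highest in rat 7. Trem2, Cd68 and Csf1r, which have matches, and Cx3cr1, which has none, were highest in rat 9. Any link between the matches and these levels was not tested.

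The receptor TREM2 binds lipids and cell debris and signals through TYROBP (also called DAP12), an adapter that carries an activation motif and serves several other myeloid receptors as well. Trem2 (NM_001106884) was counted at 16.3, 18.9, 14.6, 15.5 and 16.1 CPM in sham rats 1 to 5. Stimulated rats 6 to 10 had 12.03, 12.2, 17.6, 23.1 and 17.3 CPM. Rats 6 and 7 were below all sham rats and rat 9 was above them. The means were almost the same, 16.3 ± 1.62 and 16.4 ± 4.56 CPM (SD, n = 5 each), and the log2 fold change was 0.01 (adjusted p = 0.987, SE 0.17) with a 95% interval of -0.35 to 0.38, that is 0.783-fold to 1.302-fold.

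Tyrobp (NM_212525) was the least variable member in sham rats, at 18.6, 18.1, 17.4, 16.9 and 17.6 CPM. Stimulated rats 6 to 10 had 16.3, 36.95, 16.4, 22.9 and 21.1 CPM. Rats 7, 9 and 10 were above all sham rats, and rats 6 and 8 were just below all of them. The means were 17.7 ± 0.635 and 22.7 ± 8.45 CPM (SD, n = 5 each), so the coefficient of variation was 10.4 times larger in stimulated rats. The log2 fold change was 0.36 (adjusted p = 0.552, SE 0.193, 95% interval -0.05 to 0.78). It depended on rat 7, without which the log2 fold change was 0.11. Without rat 6 the edgeR fit gave 0.45 (unadjusted p = 0.0322, adjusted p = 0.308, where 14% of all features had an unadjusted p under 0.05), and without rat 8 it gave 0.44 (unadjusted p = 0.035, adjusted p = 0.328, beside 13.5%).

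Among stimulated rats, both phagocytic members had the largest coefficients of variation. Cd68 (NM_001031638), a glycoprotein of lysosomes and endosomes in phagocytes, was the least counted member, with 16 to 108 reads per rat. Its levels were 0.93, 1.76, 3.43, 1.45 and 1.22 CPM in sham rats 1 to 5. In stimulated rats 6 to 10 they were 1.36, 3.06, 1.28, 5.51 and 3.301 CPM. Rat 9 was the only one above all sham rats, and sham rat 3 was higher than stimulated rats 7 and 10. The means were 1.76 ± 0.983 and 2.9 ± 1.73 CPM (SD, n = 5 each). Its log2 fold change was the largest of the members, 0.73 (adjusted p = 0.583, SE 0.428, 95% interval -0.19 to 1.653). It ranged from 0.37 without rat 9 to 1.13 without sham rat 3, and that last edgeR fit gave an unadjusted p of 0.0199, beside 8.28% of all features at an unadjusted p under 0.05. Without rat 6 or rat 8 it was 0.90 in both edgeR fits, with unadjusted p = 0.0484 and 0.0476 and adjusted p = 0.354 and 0.363.

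Itgam (NM_012711) encodes CD11b, which pairs with the chain encoded by Itgb2 to form complement receptor 3 and is also carried by blood monocytes and neutrophils. Sham rats 1 to 5 had 22.3, 18.7, 26.8, 22.3 and 17.3 CPM. Stimulated rats 6 to 10 had 19.3, 57.4, 18.3, 21.01 and 20.6 CPM. Rat 7, with 1236 reads, stood far above all other rats, and the remaining stimulated rats lay within the sham range. Over all rats the log2 fold change was 0.35 (adjusted p = 0.713, SE 0.286), and it turned to -0.13 without rat 7. Itgb2 (NM_001037780) was also highest in rat 7, at 33.1 CPM, and stimulated rat 9 followed with 24.3 CPM, beside 16.4 to 22.7 CPM in sham rats, while rats 6 and 8 were below all sham rats at 13.98 and 14.9 CPM.

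**Figure D3:**
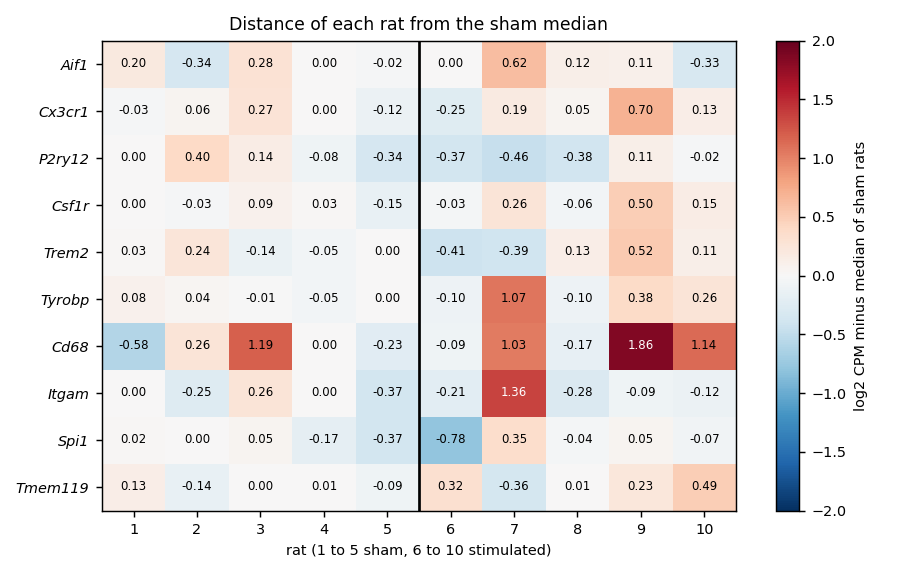
Log2 CPM of each microglial gene in each rat minus the median of the sham rats. Rat 7 is above the sham median for 7 members and below it for P2ry12, Trem2 and Tmem119, rat 9 is above it for 9 members, and rat 6 is above it for 1 member.

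Rats 7 and 9 thus differed in which members were high. Rat 9 exceeded the sham median for 9 of 10 members, all but Itgam, and was among the 3 highest rats for 8. Rat 7 exceeded the sham median for 7 members and was the lowest of all rats for P2ry12 and Tmem119. Rat 10 exceeded it for 6 members, rat 8 for 4 and rat 6 for 1. Among sham rats, rat 3 exceeded it for 7 members and rat 5 for 0. Markers of other cell types differed between the same rats. The summed level of 6 astrocyte markers was 8047 CPM in rat 7, 4017 CPM in rat 9 and 6957 CPM in rat 10, beside 2934 to 3311 CPM in sham rats and 2934 and 2993 CPM in stimulated rats 6 and 8. Most of that difference was Gfap, the filament protein of reactive astrocytes, at 6467, 2078 and 5394 CPM in rats 7, 9 and 10 and 1327 to 1926 CPM in sham rats. The other 5 markers summed to 1580, 1939 and 1562 CPM in rats 7, 9 and 10, of which only rat 9 lay outside the sham range of 1385 to 1685 CPM, and one of them, Aldh1l1, was lower in rat 7 (16.4 CPM) and rat 10 (29.3 CPM) than in any sham rat (40.5 to 50.9 CPM). The summed level of 6 oligodendrocyte markers was lowest in rat 7, at 2044 CPM, beside 2531 to 3654 CPM in sham rats. The part of these differences in the values of the members was not tested.

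Other phagocytes also express several members. Of 12 markers of blood leukocytes with a row in the matrix, 9 had too few counts to be tested, and each of the 12 had a count of 0 in at least 1 rat. Cd3d, Cd3e and Cd3g, which make the T cell receptor complex, had 4, 6 and 8 counts over the 10 rats together, and Ccr2, the chemokine receptor of entering monocytes, was between 0 and 0.56 CPM. The summed level of the 12 rows was 1.22 to 5.66 CPM across sham and 1.13 to 5.2 CPM across stimulated rats, with 5.2 CPM in rat 7 and the highest value in sham rat 3. Most of the sum in these rats was Plac8, at 3.25 CPM in rat 7 and 4.08 CPM in sham rat 3. In the other rats Plac8 was at most 0.95 CPM. The 7 markers of macrophages at brain borders, such as Mrc1 and Cd163, summed to 11.3 to 16.5 CPM across sham and 13.2 to 18.6 CPM across stimulated rats, with 14.95 CPM in rat 7. Each was counted in every library, except Cd163, with a count of 0 in sham rats 2 and 4. The part of these cells in the values of the members was not tested.

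Ratios of members within a library do not depend on its scaling and were used to ask whether phagocytic genes stood higher against P2ry12 in stimulated rats. They are described without a test. All of these ratios share the denominator P2ry12, the only member lower in stimulated rats (log2 fold change -0.25). A lower P2ry12 raises them together, whatever the numerator does, and Trem2 itself had a log2 fold change of 0.01. Cd68 over P2ry12 had a mean log2 ratio of counts of -2.94 ± 0.631 among sham and -2.03 ± 0.733 among stimulated rats (SD, n = 5 each). Rats 7, 9 and 10, at -1.50, -1.23 and -1.83, were above all sham rats, of which sham rat 3 was the highest at -1.94. Rats 6 and 8, at -2.76 and -2.84, lay within the sham range. Trem2 over P2ry12 had means of 0.42 ± 0.238 and 0.65 ± 0.234, and rats 8 and 9 were above all sham rats. Tyrobp over P2ry12 had means of 0.55 ± 0.263 and 1.09 ± 0.564. The values of rats 6, 8, 9 and 10 were nearly identical, 0.83 to 0.85, inside the sham range of 0.20 to 0.90, and rat 7 reached 2.10. Itgam over P2ry12 had means of 0.81 ± 0.319 and 1.26 ± 0.834, with 2.73 in rat 7, and rat 6, at 1.07, was also just above the sham maximum of 1.03.

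The other 2 ratios were added after the values were seen. Tyrobp over Trem2, an adapter over its receptor, was -0.07 to 0.26 in sham rats, 1.598 in rat 7 and -0.10 to 0.44 in the other stimulated rats, of which rats 6 and 10 were also above all sham rats. The counts were 796 for Tyrobp and 263 for Trem2 in rat 7, and 449 and 452 in rat 9. P2ry12 over Cx3cr1 was -1.43 to -0.86 in sham and -1.86 to -1.33 in stimulated rats, of which rats 7, 8 and 9 were below all sham rats.

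**Figure D4:**
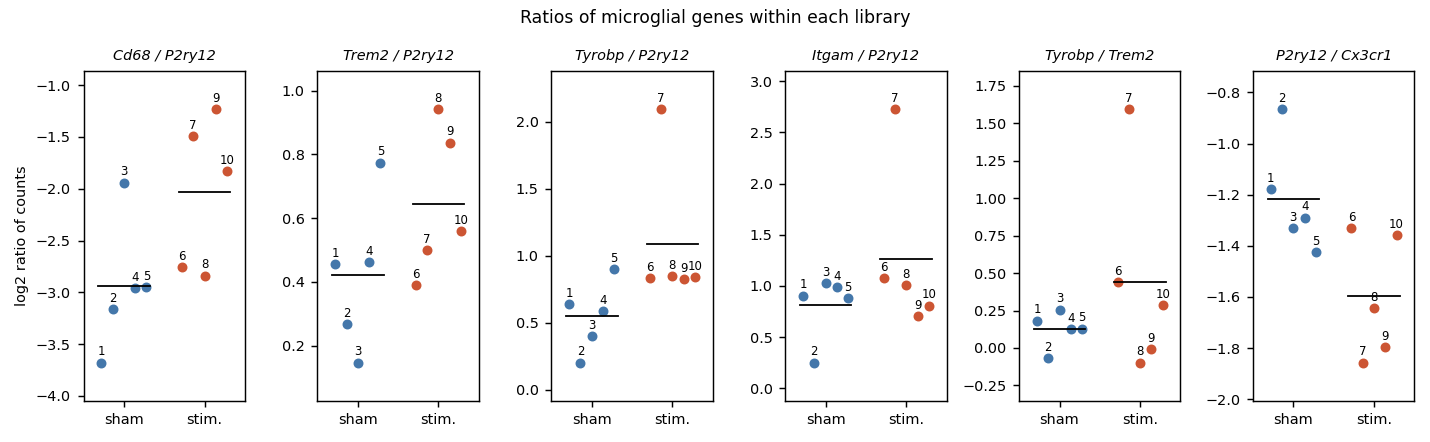
Log2 ratio of counts of pairs of microglial genes within each library, with rat numbers and the mean of each group as a line (n = 5 each). Rats 7, 9 and 10 are above all sham rats for Cd68 over P2ry12, and rat 7 is the highest for Tyrobp and Itgam over P2ry12, at 2.10 and 2.73.

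Ligands and partners of the members were then examined. Of 10 such genes, 4 had an unadjusted p under 0.05 and a higher mean in stimulated rats, 0 were lower at that threshold, and 0 passed adjustment in edgeR's quasi-likelihood test. The background was 6.7% of all features higher and 3.16% lower at an unadjusted p under 0.05. This list and the gene lists below were chosen with earlier results of these data known. Their counts beside those of all features are thus description only. Cx3cl1 (NM_134455), the fractalkine that binds CX3CR1, was counted at 376 to 479 CPM in sham rats. In stimulated rats 6 to 10 it had 412, 801, 406, 918 and 520 CPM, so rats 7, 9 and 10 were above all sham rats. Its log2 fold change was 0.46 (adjusted p = 0.473, SE 0.202). Nt5e (NM_021576), which makes adenosine from AMP downstream of the ADP that P2RY12 senses, averaged 12.6 ± 0.827 CPM among sham and 17.6 ± 3.04 CPM among stimulated rats (SD, n = 5 each), a log2 fold change of 0.49 (adjusted p = 0.376, SE 0.134), and 4 of 5 stimulated rats were above all sham rats. Tgfb1 (NM_021578), which helps to hold microglia in their resting identity, had a log2 fold change of 0.77 (adjusted p = 0.415, SE 0.274). Clu (NM_053021), an apolipoprotein that TREM2 can bind, had a log2 fold change of 0.33 (adjusted p = 0.409, SE 0.111). Neither ligand of CSF1R passed the test. Csf1 (NM_023981) had a log2 fold change of -0.19 (adjusted p = 0.715, SE 0.153) and Il34 (NM_001025766) one of -0.12 (adjusted p = 0.778, SE 0.121). For Itgb2 it was 0.22 (adjusted p = 0.75, SE 0.209).

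Further genes typical of surveying microglia gave a median log2 fold change of 0.10 over 12 tested genes. Slc2a5 (NM_031741), the fructose transporter GLUT5, was the only one at an unadjusted p under 0.05 in edgeR's quasi-likelihood test, beside 9.86% of all features. It had 47.4 ± 10.4 CPM among sham and 61.8 ± 8.68 CPM among stimulated rats (SD, n = 5 each) and a log2 fold change of 0.38 (adjusted p = 0.423, SE 0.145). Siglec5 (NM_001106249) and Ltc4s (NM_053639) had log2 fold changes of 0.74 (adjusted p = 0.521, SE 0.358) and 0.66 (adjusted p = 0.564, SE 0.364). With 1 rat left out, the number at an unadjusted p under 0.05 and higher ranged from 0 (without sham rat 4 or 5, where 5.15% and 4.98% of all features were higher) to 3 (without rat 7, where 4.74% were). The median was 0.023 without rat 9. None of the 12 passed adjustment in edgeR's test, with all rats or with any left out.

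Of 8 other transcription factors of the microglial lineage, 1 was higher and 0 were lower at an unadjusted p under 0.05 (6.7% and 3.16% of all features). By this quasi-likelihood test of edgeR, 0 passed adjustment. The median log2 fold change was 0.22, with 4 factors above 0 and 4 below. Without rat 7 the median was 0.028 and 1 factor was lower at that threshold, which 7.37% of all features passed in either direction. Without rat 9 the median was 0.097, and the number higher was 3 without rat 6 (8.27% of all features). Runx1 (NM_017325), a factor of blood cell development, had 0.70 to 1.602 CPM in sham rats and 0.68, 5.06, 0.83, 6.12 and 3.04 CPM in stimulated rats 6 to 10. Rats 7, 9 and 10 were again above all sham rats, and the log2 fold change was 1.71 (adjusted p = 0.396, SE 0.54). Irf8 (NM_001008722), which acts with PU.1, had 3.55 to 5.71 CPM in sham rats and 4.43, 13.4, 4.02, 5.92 and 4.95 CPM in stimulated rats 6 to 10. As for Spi1, rat 7 was the highest, and the log2 fold change was 0.53 (adjusted p = 0.573, SE 0.304).

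Signalling genes downstream of TYROBP and related receptors had 11 of 12 log2 fold changes above 0, beside 52.2% of all features, with a median of 0.23. In edgeR's quasi-likelihood test, 0 genes were at an unadjusted p under 0.05 (9.86% of all features) and 0 passed adjustment. At an unadjusted p under 0.05, 1 was higher in DESeq2 (6.76% of all features) and in the likelihood ratio test (6.87%). Up to 3 were higher with 1 rat left out (sham rat 3, where 5.6% of all features were higher, or stimulated rat 6, where 8.27% were). Syk (NM_012758), the kinase recruited to the TYROBP motif, had a log2 fold change of 0.31 (adjusted p = 0.526, SE 0.153). Fcer1g (NM_001131001), the adapter of Fc receptors, had one of 0.20 (adjusted p = 0.638, SE 0.132). Hcst, the DAP10 adapter that also pairs with TREM2, had 26 counts in all and was not tested.

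Genes of phagocytosis and lysosomes had 14 of 16 log2 fold changes above 0, beside 52.2% of all features, with a median of 0.31 that was 0.12 without rat 7. At an unadjusted p under 0.05, 2 were higher, beside 6.7% of all features, 0 were lower, and 0 passed adjustment in edgeR's quasi-likelihood test. Without rat 8 the number higher was 4 (7.99% of all features). Ctss (NM_017320), a lysosomal protease abundant in microglia, was counted at 286, 217, 232, 232 and 237 CPM in sham rats 1 to 5. Stimulated rats 6 to 10 had 247, 342, 321, 359 and 294 CPM, and all but rat 6 were above all sham rats. Its log2 fold change was 0.38 (adjusted p = 0.38, SE 0.107). Lyz2 (NM_012771), lysozyme, had 16.8 to 21.4 CPM in sham rats and 45.5, 27.4 and 58.6 CPM in rats 7, 9 and 10, with 19.7 CPM in both rats 6 and 8. Its log2 fold change was 0.84 (adjusted p = 0.396, SE 0.266). Cd14 (NM_021744), a co-receptor for bacterial lipopolysaccharide, was at 19.03 CPM in rat 7, where every other rat had between 2.04 and 5.42 CPM, and its log2 fold change was 0.98 (adjusted p = 0.543, SE 0.501).

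Genes described in microglia around damaged tissue, the state that depends on TREM2, followed. This list too was chosen with earlier results of these data known, so its counts are description only. Of 11 tested genes, 4 were higher and 1 was lower at an unadjusted p under 0.05 (6.7% and 3.16% of all features), 0 passed adjustment by the quasi-likelihood test of edgeR, and the median log2 fold change was 0.43. Without rat 7 the number higher was 2 (4.74% of all features) and the median 0.11, and without rat 6 the number higher was 6 (8.27%). Lgals3 (NM_031832), a lectin of phagocytes, had 1.07 to 1.85 CPM in sham rats and 0.45, 16.1, 1.79, 3.93 and 6.5 CPM in stimulated rats 6 to 10. Its log2 fold change was 2.04 (adjusted p = 0.399, SE 0.651). Gpnmb (NM_133298), a membrane glycoprotein of phagocytes loaded with lipid, had 58.02, 32.7 and 35.4 CPM in rats 7, 9 and 10 beside 13.5 to 14.7 CPM in sham rats, and a log2 fold change of 1.10 (adjusted p = 0.396, SE 0.347). Clec7a (NM_001173386), a receptor for fungal glucans, had a count of 0 in sham rats 1 and 4 and its highest level, 1.76 CPM, in rat 7. Cd9 (NM_053018), a tetraspanin that astrocytes and oligodendrocytes also express, had a log2 fold change of 0.54 (adjusted p = 0.432, SE 0.212). Lpl (NM_012598), lipoprotein lipase, which neurons express too, was named after its values were seen as the lower one, with a log2 fold change of -0.48 (adjusted p = 0.454, SE 0.199). In each of Lyz2, Gpnmb and Lgals3, rats 7, 9 and 10 were above all sham rats, the same rats as for Csf1r and Tyrobp. The same rats were above all sham rats for Gfap, an astrocyte gene, and for Cd9, Tgfb1, Cx3cl1 and Clu. The pattern is thus not particular to microglial genes, and its share over all features was not counted.

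**Figure D5:**
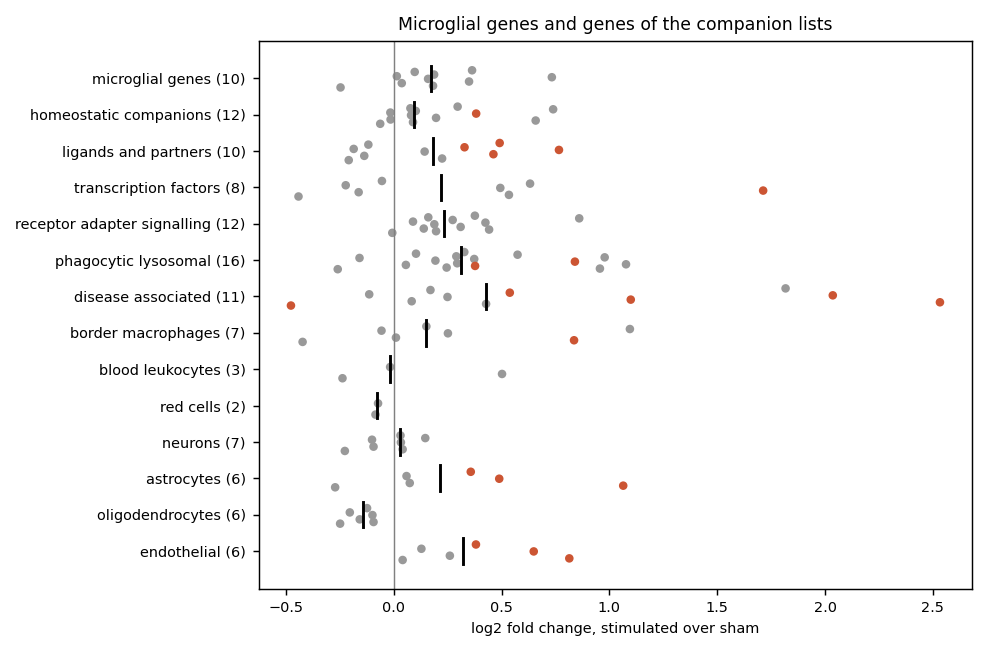
Log2 fold change, stimulated over sham, of each tested gene of the microglial genes and of the companion lists (number tested in brackets), with the median of each list as a black line. Orange points have an unadjusted p under 0.05 by the quasi-likelihood test of edgeR, and no point has an adjusted p under 0.05. The 10 microglial genes lie between -0.25 and 0.73, with no orange point.

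Features whose levels across the 10 rats were most like the mean standardized log2 CPM of the members were ranked by Pearson's r, as a measure of likeness alone. That mean does not stand for all members alike. The r of a member with the mean of the others ranged from -0.201 for Tmem119 to 0.902 for Csf1r. It was only 0.173 to 0.22 for P2ry12, Aif1 and Trem2. All points share their libraries and scaling, and the features are the first 6 with a symbol among all those tested. They were Aebp1 (0.958), Cd74 (0.951), RT1-Da (0.933), Zfp46 (0.928), RT1-Ba (0.922) and Ddr1 (0.909). Cd74, RT1-Da and RT1-Ba belong to the machinery of MHC class II, by which phagocytes present antigen. Cd74 (NM_013069) had 12.8 to 25.5 CPM across sham and 11.9 to 54.2 CPM across stimulated rats, which overlapped, and a log2 fold change of 0.84 (adjusted p = 0.491, SE 0.382).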

How the data were processed

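Poly(A) mRNA of 10 rats (5 sham, 5 stimulated) was sequenced as 36-cycle single reads. The deposited values are raw counts per RefSeq identifier, which the authors made by alignment to the rat genome rn4 with BWA and a counting script of their own. Their methods name an Ensembl annotation, although the rows carry RefSeq identifiers. The handling of strand and of reads with several matches is not given in the sources used here. Between 32.01 and 45.1% of reads per library were unaligned and set aside. Nothing states which rats shared a preparation. The methods count 4 stimulated rats for this assay and the labels 5. All 5 were used, and each was left out in turn.

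Features with a summed count of at least 46 (the 30th percentile) were kept, 22447 of 32041. Trimmed mean factors and the quasi-likelihood test of edgeR 4.0.16 (R 4.3.3) compared the groups, without covariates and with Benjamini-Hochberg adjustment across features. Log2 CPM used a prior count of 2, and intervals use the t quantile of the fit. The procedure was tested on simulated data with known changes. At an adjusted p under 0.05 in edgeR's quasi-likelihood test, it recovered 72% of 100 features changed 2-fold and 99% of 100 changed 4-fold. There were 17 false calls among the 22447 features, and smaller changes were not simulated. Each simulated feature had the same dispersion in both groups, and changed features were drawn only from those above a floor of mean CPM. In the data the coefficient of variation was larger in stimulated rats for 69.2% of all features. The recovered shares thus do not give the share of such changes that the test would find in these data. The members and gene lists were chosen with earlier results of these data known. Named genes are the 10 members, at most 4 genes of each companion list by smallest unadjusted p, 7 direct partners and the 6 features most like the members. Lpl and the untested T cell markers were named outside this rule after their values were seen. Listed genes with no row under their symbol (among them Selplg, Cd33, Adora3, Mef2c, Bhlhe41, Dock2, Itgax, Stab1, Ms4a7, Ms4a1, Mpo and Hba1) were not analysed here, and some named genes are not reported here. Alternatives were other scaling factors, filters and fits, DESeq2 1.42.0, limma-voom (limma 3.58.1), summed rows, the omission of ribosomal RNA records and of each rat. Promoter letters came from the RefSeq table of GRCr8, a different build from the counts, so no positions were transferred between them.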

Additional observations from a re-analysis of the deposited data

Results flagged for a closer look

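Itgam in stimulated rats had 1 value far from the others. Rat 7 had 57.4 CPM where the other 4 stimulated rats had 18.3 to 21.01 CPM. The gap between rat 7 and the next rat was 0.88 of the range of the group (0.8803, above Dixon's 95% critical value of 0.71 for 5 values). Of 20 groups tested (10 members in sham and in stimulated rats), 1 was flagged, and chance flags about 1 in 20.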

How the results depend on the processing

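The number of members with an adjusted p under 0.05 was 0 in every alternative run (other scaling factors and filters, the likelihood ratio test, DESeq2, limma-voom, other quasi-likelihood settings, summed rows, no ribosomal RNA records, and each rat left out), and the smallest adjusted p over all of them was 0.308, for Tyrobp without stimulated rat 6. At an unadjusted p under 0.05 the number of members was 0 with all rats and ranged from 0 to 2 when a rat was left out: 1 (Cd68) without sham rat 3 (8.28% of all features), 2 (Tyrobp and Cd68) without stimulated rat 6 (14%) or rat 8 (13.5%), and 1 (Tmem119) without stimulated rat 7 (7.37%). These fits have fewer samples. The direction of the log2 fold change turned for 5 members. Trem2 was at -0.027 with limma-voom and -0.013 with upper quartile factors, and with a rat left out it ranged from -0.14 (without rat 9) to 0.10 (without rat 6). The leave-one-out range was -0.068 to 0.19 for Aif1, -0.00017 to 0.24 for Cx3cr1, -0.13 to 0.45 for Itgam and -0.10 to 0.16 for Spi1. In the remaining 5 members the direction was kept in all alternatives run. Among the genes of the companion lists, the number with an adjusted p under 0.05 was 0 in edgeR's quasi-likelihood test and 1 (Pecam1, an adhesion molecule of endothelium) in both the likelihood ratio test and DESeq2; the cause was not tested. The scaling moved the median log2 fold change of all features only between -0.01 and 0.03. No paired analysis was possible because the labels number the rats from 1 to 10 and give the groups no shared replicate numbers. Cd68, with 16 to 108 reads per rat, had the widest interval of the members.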

Other observations

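Markers of other cells of the vessel wall and of the glia were also counted. These lists too were chosen with earlier results of these data known. Of 6 endothelial markers, 3 were higher at an unadjusted p under 0.05 by the quasi-likelihood test of edgeR, beside 6.7% of all features, and 0 passed adjustment. Without rat 10 the number was 1 and the median log2 fold change 0.15, beside 0.32 with all rats. Pecam1 (NM_031591) was 10.5 to 16.9 CPM in sham and 18.2 to 33.1 CPM in stimulated rats, so the groups did not overlap, as for 1.29% of all features, and its log2 fold change was 0.81 (adjusted p = 0.376, SE 0.185). Of 6 astrocyte markers, 3 were higher at that unadjusted threshold, beside 6.7% of all features, and Aqp4 (NM_012825), the water channel of astrocyte end-feet, was 88.1 to 121 CPM in sham and 126 to 192 CPM in stimulated rats, also without overlap (log2 fold change 0.49, adjusted p = 0.376, SE 0.129). Aldh1l1 (NM_022547), an enzyme of astrocytes, had a log2 fold change of -0.27 (adjusted p = 0.72, SE 0.23), with rats 7 and 10 below all sham rats. All 6 oligodendrocyte markers had log2 fold changes below 0, between -0.25 and -0.09, where 52.2% of all features were above 0. In edgeR's quasi-likelihood test 0 of them had an unadjusted p under 0.05, beside 9.86% of all features. Their median of -0.141 depended on single rats: it was -0.058 without rat 7 and -0.235 without rat 10. Among markers of border macrophages, Clec10a (NM_022393), a lectin, had 1.16 to 1.69 CPM in sham and 1.36 to 4.23 CPM in stimulated rats, of which 4 were above all sham rats (log2 fold change 0.84, adjusted p = 0.412, SE 0.289). Neuronal markers had a median log2 fold change of 0.03 over 7 genes, 4 above 0 and 3 below. At an unadjusted p under 0.05, 0 were found by edgeR's quasi-likelihood test, beside 9.86% of all features. Rbfox3 (NM_001134498) had a log2 fold change of -0.23 (adjusted p = 0.57, SE 0.128), with 4 stimulated rats below all sham rats. Snap25 (NM_030991) had one of -0.09 (adjusted p = 0.788, SE 0.101), with 3 stimulated rats below all sham rats. The 2 globin and heme genes of red cells had a median of -0.08. Blood leukocyte markers had a median of -0.02 over 3 tested genes, and it ranged from -0.46 without stimulated rat 7 to 0.54 without sham rat 3.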
